A study of Mus musculus with 6 samples.

Results

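The comparison of irradiated with steady-state cells of wild-type mice was made across genes. It joined 2 RNA-seq libraries by Ensembl gene identifier and took every gene with at least 5 FPKM (fragments per kilobase of gene model, scaled to the size of the library, so a level per length) in the higher of the pair. Of 30403 genes listed, 7418 met that rule. Both libraries came from C57BL/6 mice and from marrow cells that the labels call long-term haematopoietic stem cells, sorted as negative for Lineage antigens, positive for Sca1 and cKit, and negative for CD34 and Flk2. One library was of cells from unstressed wild-type mice, and the other of cells from wild-type mice 12 days after irradiation, at a dose the labels do not state. The series holds a second pair of RNA-seq libraries, from Twist1 cKO mice (Twist1 is a transcription factor of the helix-loop-helix class, and the labels do not say which Cre or cell type the conditional knockout used) at steady state and 12 days after irradiation. That pair shares no library with the wild-type one, and its values are set beside the wild-type values as a second pair in which genotype also differs. Whether the RNA of a library came from 1 animal or from several pooled animals is not given, and each group held 1 library, so nothing here can be set against a spread between replicates and no p-value is given. The series also holds 2 ATAC-seq samples, which were not analysed here.

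Long-term haematopoietic stem cells are rare, mostly resting marrow cells from which all blood lineages are renewed. They are held in that state by cytokine receptors, by transcription factors of the homeobox, Gata2 and Mecom-Hlf group, and by low protein synthesis and low mitochondrial respiration. Red cells arise from them through committed erythroid progenitors, in which GATA1 and KLF1 take over from GATA2, the erythropoietin receptor drives survival, and genes of haem synthesis and the red cell membrane are switched on before the globins. Radiation removes dividing marrow cells, and blood formation is then rebuilt from the stem and progenitor cells that survive.

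Many transcripts of stem cell identity were far lower in the irradiated library, while transcripts of early red cell formation, cell division, ribosome assembly and mitochondrial protein supply were higher in it. Procr, the endothelial protein C receptor and a marker of stem cells, had 51.3 FPKM in the steady-state library and 0.333 FPKM in the irradiated one. Klf1, the erythroid Krüppel-like factor, had 93.5 FPKM and 703 FPKM. In the plot of gene levels these groups lie on opposite sides of the diagonal. Because the RNA was extracted from sorted cells in bulk, fewer cells of a type and less RNA of that type per cell cannot be told apart.

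**Figure D1:**
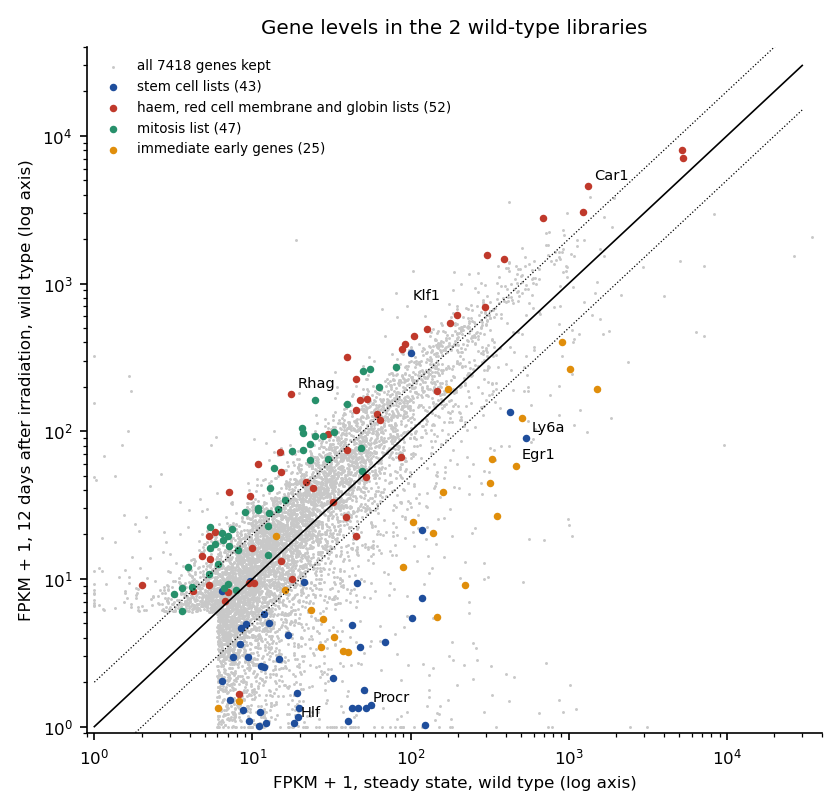
Levels of the 7418 genes kept, in the steady-state (horizontal) and irradiated (vertical) wild-type library, as FPKM + 1 on log axes, 1 point per gene, with members of 4 groups of gene lists in colour; the solid line marks equal values and the dotted lines a ratio of 2. Stem cell genes and immediate early genes lie mostly below the lower dotted line, and genes of the haem, red cell membrane, globin and mitosis lists mostly above the diagonal.

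Promoters are shown first for 7 genes whose levels carry the comparison: 3 erythroid genes and 2 mitotic genes that were higher after irradiation, and 2 megakaryocyte and stem cell genes that were lower. Each line is the RefSeq window (build GRCm38.p6) from 250 bases before to 50 bases after a gene's start, 5′ to 3′ on the gene's strand. Capitals mark the letters of the GATA motif (AGATAA or AGATAG, or either with T as its first letter, on both strands) in the 3 erythroid genes, a motif GATA1 is known to bind. In the 2 mitotic genes they mark CCAAT, the box that NF-Y is known to bind, and in the last 2 genes GATA and the ETS core AGGAAG were searched, of which Pf4 holds both and Itga2b the ETS letters alone.
Klf1 (chr8:84901732-84902031, plus strand): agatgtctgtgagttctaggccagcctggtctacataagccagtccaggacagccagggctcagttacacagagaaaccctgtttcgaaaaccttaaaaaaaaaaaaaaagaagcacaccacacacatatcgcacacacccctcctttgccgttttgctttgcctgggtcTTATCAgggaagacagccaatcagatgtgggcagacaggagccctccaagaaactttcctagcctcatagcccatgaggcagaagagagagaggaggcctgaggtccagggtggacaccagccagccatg
Cpox (chr16:58669958-58670257, plus strand): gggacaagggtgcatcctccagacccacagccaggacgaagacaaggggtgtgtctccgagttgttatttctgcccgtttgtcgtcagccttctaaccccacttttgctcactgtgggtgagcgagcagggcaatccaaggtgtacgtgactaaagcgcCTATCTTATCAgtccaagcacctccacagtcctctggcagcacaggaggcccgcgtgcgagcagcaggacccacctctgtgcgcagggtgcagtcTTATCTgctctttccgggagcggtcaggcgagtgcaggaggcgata
Epor (chr9:21963527-21963826, minus strand): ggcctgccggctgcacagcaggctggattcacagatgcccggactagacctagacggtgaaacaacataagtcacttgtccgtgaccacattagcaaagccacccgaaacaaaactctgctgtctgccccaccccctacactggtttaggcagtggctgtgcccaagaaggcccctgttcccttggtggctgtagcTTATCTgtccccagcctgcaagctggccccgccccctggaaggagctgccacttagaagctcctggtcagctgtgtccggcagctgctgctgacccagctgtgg
Ccnb1 (chr13:100786437-100786736, minus strand): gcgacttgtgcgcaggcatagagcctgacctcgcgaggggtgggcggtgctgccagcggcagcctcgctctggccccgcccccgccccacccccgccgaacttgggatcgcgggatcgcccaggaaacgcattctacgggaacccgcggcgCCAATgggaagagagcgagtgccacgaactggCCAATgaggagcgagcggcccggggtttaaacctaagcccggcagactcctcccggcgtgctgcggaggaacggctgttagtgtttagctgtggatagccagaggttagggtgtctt
Cdc20 (chr4:118437294-118437593, minus strand): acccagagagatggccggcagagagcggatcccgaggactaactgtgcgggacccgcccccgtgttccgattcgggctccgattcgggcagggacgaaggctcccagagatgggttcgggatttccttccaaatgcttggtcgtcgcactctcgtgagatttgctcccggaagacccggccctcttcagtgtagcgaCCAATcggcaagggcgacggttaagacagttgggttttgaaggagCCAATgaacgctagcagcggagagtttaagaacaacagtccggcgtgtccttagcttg
Pf4 (chr5:90772185-90772484, plus strand): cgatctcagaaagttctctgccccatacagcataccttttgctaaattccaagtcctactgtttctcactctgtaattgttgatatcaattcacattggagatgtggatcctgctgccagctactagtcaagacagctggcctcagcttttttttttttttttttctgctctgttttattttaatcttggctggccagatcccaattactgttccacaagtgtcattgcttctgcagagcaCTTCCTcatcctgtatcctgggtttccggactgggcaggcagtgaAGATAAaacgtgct
Itga2b (chr11:102469834-102470133, minus strand): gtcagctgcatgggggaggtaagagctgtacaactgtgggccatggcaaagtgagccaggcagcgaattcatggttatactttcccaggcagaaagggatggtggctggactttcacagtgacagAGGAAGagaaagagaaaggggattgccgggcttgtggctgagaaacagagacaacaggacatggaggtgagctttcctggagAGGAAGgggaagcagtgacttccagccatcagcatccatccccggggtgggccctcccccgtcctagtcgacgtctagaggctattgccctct

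Among the promoters of the haem, red cell membrane and globin lists, 39.1% (27 of 69) held the GATA letters on either strand, beside 19.2% of the 6807 promoters of all genes kept and 29.8% of all 32851 promoters in the table. The CACCC letters of Krüppel-like factors (CCNCNCCC) were in 63.8% of the promoters of the same lists and in 66.0% of those of all genes kept. They were in 81.4% (48 of 59) of the promoters of the stem cell lists, whose kept members were mostly lower after irradiation. The CCAAT letters were in 70.5% (31 of 44) of mitosis promoters and in 58.7% of DNA replication promoters, beside 38.7% for all genes kept and 37.4% for all promoters. Letters of an E2F site (TTTGGCGC or TTTCGCGC) were in 26.1% of replication promoters and in 1.88% of those of all genes kept. A GATA share above that of all genes kept was not limited to the red cell lists. Mitosis promoters held these letters in 27.3% (12 of 44), and the stem cell lists also lay above that of all genes kept. Replication promoters lay below it. The GATA letters were in 26.8% of the promoters of genes at least 4-fold higher and in 21.9% of those of genes at least 4-fold lower. At 2-fold these GATA shares were 20.7% and 21.5%. AGGAAG was in 47.1% of the promoters of genes at least 4-fold lower and in 30.9% of those of genes at least 4-fold higher, beside 34.5% for all genes kept. In Cpox the first 2 of 3 GATA matches share 1 base. Shares of lists cover all members with a promoter, whether kept or not. All these shares describe letters in windows of 300 bases and not binding.

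Differences are given as log2(FPKM + 1), irradiated minus steady state, a scale that understates the change of genes with low levels, and a gene is counted as higher or lower when it is at least 2-fold apart on that scale. Folds of single genes are ratios of FPKM, each with a 95% interval from the reads behind the values. These intervals cover counting error only, and PCR copies are not independent molecules. By the 2-fold rule 1400 genes (18.9%) were higher and 1401 (18.9%) were lower after irradiation, of 7418. At 4-fold the sides were uneven, with 148 genes (2%) higher and 674 (9.09%) lower, and at 16-fold 15 (0.202%) and 141 (1.90%). The median over all genes was 0.21. This general shift depends on the scale between libraries: it lay between −0.33 and 0.78 under 6 other scales. Relative to the median of all genes, 942 genes (12.7%) were higher and 1668 (22.5%) lower, so that 36.1% of the calls were higher in place of 50%. Other scales gave from 645 higher and 2578 lower (20% higher, without the 50 most abundant genes) to 3281 and 992 (76.8%, upper quartile). List medians below are therefore to be read against the 0.21 of all genes. That value rose with level, to 0.58 at a minimum of 20 FPKM. A list of 17 common reference genes had a median of 0.61, with 3 at least 2-fold higher and 1 lower. Medians of lists of abundant genes stand out less against these values than against 0.21.

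The number of genes kept was tied to level. Of the genes called, 982 lower and 258 higher ones reached 5 FPKM in 1 of the 2 libraries alone, so a count over kept members is not a count over whole lists, and a list whose members were kept through 1 library had to differ in that direction. That held for 14 of 18 kept stem cell transcription factors, 20 of 25 stem cell surface genes, 12 of 15 megakaryocyte genes, 5 of 7 endothelial genes, 7 of 9 T and NK cell genes and 8 of 25 immediate early genes through the steady-state library, and for 9 of 47 mitosis genes through the irradiated one. It also held through the steady-state library for 7 of 16 erythropoietin pathway genes, 10 of 29 interferon-stimulated genes and 8 of 17 inflammatory genes. The same applied to 8 of 16 progenitor, 6 of 21 B cell, 6 of 18 neutrophil and 7 of 25 glycolysis genes. Through the irradiated library it held for 6 of 25 DNA repair, 4 of 27 haem and 3 of 21 red cell membrane genes. The counts and medians of these lists describe the kept members only. Genes at 100 FPKM or more numbered 814 at steady state and 1091 after irradiation. From at least 20 FPKM at steady state to under 1 FPKM after irradiation went 86 genes, whereas 13 went the other way. Most of the 86 were immunoglobulin genes or segments, and most of the 13 were predicted genes or receptor segments. In the cKO pair 30 of the 86 and 2 of the 13 met the same rule.

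Depth was similar. The reads recovered from the FPKM values added up to 25100818 at steady state and 24743747 after irradiation, in gene models covering 73.1% and 79.2% of identifiers with at least 1 read. The library sizes that the authors' FPKM imply were 26031985 and 22146433 reads. The recovered sum was thus below the implied size at steady state and above it after irradiation, and the reason was not tested. With each library scaled to its recovered sum in place of the implied size the median of all genes was −0.02. Shares of reads are given of the recovered sums. Transcripts of the Y chromosome split the libraries in the same way as irradiation. Ddx3y had 10.2 FPKM in the steady-state library and 0.0521 FPKM in the irradiated one, and Eif2s3y had 18.4 and 0.0109 FPKM. Xist, the RNA that coats a silenced X chromosome, was at 0.0171 and 1 FPKM. The same split was present in the cKO pair, so sex and irradiation cannot be told apart in these libraries. Without genes of the X and Y chromosomes the counts were 1363 higher and 1369 lower.

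The labelled cell type was checked against the sorting gate and the markers of stem cells. Ly6a, which encodes the Sca1 antigen, had 534 FPKM in the steady-state library and 89.1 FPKM in the irradiated one, 5.99-fold lower (5.74 to 6.25). Kit, the stem cell factor receptor, had 20.1 and 8.52 FPKM, 2.36-fold lower (2.23 to 2.50). The 2 antigens the gate selects against were also lower: Cd34 had 18.4 and 0.155 FPKM, and Flt3, which encodes Flk2, had 6.26 and 0.519 FPKM. All 4 gate genes were thus lower after irradiation, and both genes of the positive gate were present in each library. Of the lineage antigens, Cd3e, Itgam and Ly6g were below the 5 FPKM minimum in both libraries, at 0.0719 to 1.44 FPKM.

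Markers of stem cells differed widely in how far they were lower. Procr had 51.3 FPKM in the steady-state library and 0.333 FPKM in the irradiated one (154-fold lower, 93.1 to 275). Hlf, a stem cell leucine zipper factor, had 17.4 and 0.0608 FPKM (286-fold lower, 150 to 626). Fgd5 had 1.69 and 0.00718 FPKM, the latter from 1 read. Other markers were lower but present after irradiation, among them Ly6a, Kit, Hoxa9 (4.05 FPKM) and Mllt3 (4.80 FPKM). Slamf1, which encodes CD150 and marks stem cells among other blood cells, was at 7.41 and 3.65 FPKM (−0.85), and Cd48, an antigen that stem cells lack and progenitors carry, had 100 and 337 FPKM (3.36-fold higher, 3.22 to 3.50).

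The stem cell transcription factors kept were mostly lower, and 14 of the 18 reached 5 FPKM at steady state only. The 18 of 25 listed factors that were kept had a median of −2.26 (all genes 0.21), 15 were at least 2-fold lower and 0 higher, and 17 of 18 lay below the median of all genes. Mycn, a Myc family member of stem and progenitor cells, had 39.2 FPKM in the steady-state library and 0.0960 FPKM in the irradiated one. Meis1, the cofactor of Hoxa proteins, had 18.1 and 0.686 FPKM (26.4-fold lower, 21.1 to 33.4), and Fli1, an ETS factor of stem cells and megakaryocytes, had 31.1 and 1.13 FPKM (27.6-fold lower, 22.3 to 34.6). The homeobox genes differed among themselves: Hoxa5 went from 10.2 to 0.265 FPKM (−3.14), and Hoxa9 from 11.7 to 4.05 FPKM (−1.34). Mecom, needed for stem cell maintenance, was under the minimum in both libraries at 3.83 and 0.109 FPKM. Tal1, shared by stem cells and the erythroid lineage, had 8.66 FPKM in both, and Bcl11a went from 5.39 to 7.34 FPKM (0.38). Runx1, a regulator of definitive blood formation, had 5.45 and 1.03 FPKM (5.29-fold lower, 4.65 to 6.04). Twist1 itself rested on few reads, at 0.143 and 0.140 FPKM.

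Surface and signalling genes of stem cells were lower still, with a median of −3.51 over 25 of 34 members listed, 23 at least 2-fold lower and 1 higher (Cd48). Cd27, a co-stimulatory receptor of the TNF receptor family, went from 54.8 to 0.407 FPKM (135-fold lower, 87.9 to 218), and Esam, an adhesion molecule used to isolate stem cells, from 45.4 to 0.331 FPKM (137-fold lower, 89.6 to 222). The least reduced members after Cd48 and Slamf1 were Kit, Socs2 (7.37 to 2.60 FPKM) and Tgfbr2 (6.57 to 1.98 FPKM). Of the 25 kept, 20 reached 5 FPKM at steady state only. Together the reads of both stem cell lists made up 0.687% of the steady-state library and 0.129% of the irradiated one.

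**Figure D2:**
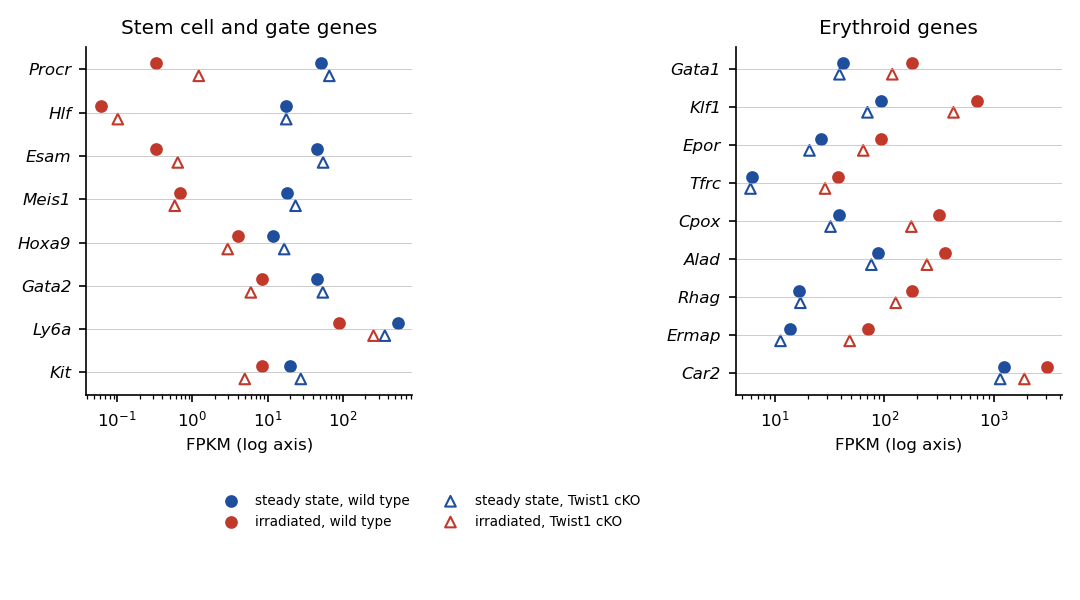
FPKM on a log axis of 8 stem cell and gate genes (left) and 9 erythroid genes (right) in the 4 RNA-seq libraries; circles are wild type and triangles Twist1 cKO, blue is steady state and red is after irradiation, 1 library per point. For every gene shown, the irradiated libraries lie on the same side of their own steady-state library in both pairs, with Ly6a closest in the cKO pair (362 and 256 FPKM).

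Other genes among the 20 lowest stood outside these lists. Nkx2-3, a homeobox gene, had 79.0 FPKM at steady state and 0 reads after irradiation, at least 1231-fold lower at a floor of 3 reads in that library. Myct1, a Myc target gene, went from 86.3 to 0.179 FPKM. Gng11, a G protein gamma subunit, went from 130 to 0.590 FPKM (220-fold lower, 126 to 427), and Ctla2a, an inhibitor of cathepsins, from 994 to 24.3 FPKM (41.0-fold lower, 38.1 to 44.1). Its near copy Ctla2b was lower as well (129 to 1.22 FPKM), and how reads were divided between the copies is not given. Krt18, Pdzk1ip1, Pcp4l1 and Adgrl4 completed the group, with differences between −5.39 and −5.22. All 9 of these genes were also at least 2-fold lower in the cKO pair, at −6.51 for Ctla2a and −6.13 for Nkx2-3.

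Megakaryocyte and platelet genes, many of which stem cells transcribe, had a median of −3.76 over the 15 of 24 genes kept, 13 of them at least 2-fold lower. Pf4, platelet factor 4, had 288 FPKM in the steady-state library and 11.8 FPKM in the irradiated one (24.5-fold lower, 21.2 to 28.5), and Itga2b, the platelet integrin alpha chain, had 18.8 and 0.339 FPKM. Gp9, part of the von Willebrand factor receptor, had 45.6 and 1.69 FPKM. Gp5, of the same receptor, did not follow them, at 19.3 and 20.5 FPKM. Endothelial genes that stem cells share had a median of −3.12 over 7 genes, with Mmrn1, multimerin, at 20.3 and 0.0769 FPKM and Erg at 8.50 and 0.0912 FPKM, while Egfl7 was 1.66-fold higher (1.55 to 1.77). The endothelial markers Kdr and Cdh5 were at 0.277 FPKM or less in both libraries. Of the imprinted growth genes, 3 were kept: Ndn, necdin, went from 11.1 to 0.0611 FPKM, Cdkn1c, the p57 inhibitor, from 8.44 to 0.177 FPKM (47.6-fold lower, 24.0 to 111), and Phlda2 from 19.7 to 12.8 FPKM. H19, Igf2 and Dlk1 stayed at 0.312 FPKM or less.

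Factors of the erythroid programme parted. Gata1 had 42.2 FPKM in the steady-state library and 179 FPKM in the irradiated one (4.24-fold higher, 4.06 to 4.42), whereas Gata2, which precedes it, had 44.9 and 8.33 FPKM (5.39-fold lower, 5.04 to 5.77). Gata1 and Gata2 were thus nearly level at steady state, and the Gata1 value was the higher by far after irradiation. Klf1 was 7.52-fold higher (7.26 to 7.79). E2f4, which supports erythroid cell division, had 43.8 and 135 FPKM, and Gfi1b, an erythroid and megakaryocytic repressor, had 73.5 and 175 FPKM. On the other side, Lmo2, the bridging partner of GATA and TAL1 complexes, had 425 and 134 FPKM (3.17-fold lower, 3.09 to 3.26), Cbfa2t3, their corepressor, had 11.4 and 2.73 FPKM, and Nfe2 had 165 and 56.5 FPKM. Of 15 factors kept 4 were at least 2-fold higher and 4 lower, and their median of 0.00 changed sign with the scale (−0.78 to 0.55).

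Receptor and signalling genes of the erythropoietin pathway did not move with its receptor. Epor had 26.3 FPKM in the steady-state library and 92.4 FPKM in the irradiated one (3.51-fold higher, 3.29 to 3.75), and Tfr2, its partner at the surface, 26.3 and 52.4 FPKM. The remaining 14 of 16 genes kept had differences of −0.19 or lower: Socs3, a feedback inhibitor, had 15.8 and 0.422 FPKM (37.5-fold lower, 25.6 to 57.1), Cish, a STAT5 target, 7.32 and 2.30 FPKM, Pim1 8.68 and 1.76 FPKM, and Stat5a 8.52 and 5.37 FPKM. The median was −0.84, 7 were at least 2-fold lower and 1 higher. Of the 16 kept, 7 reached 5 FPKM at steady state only.

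Haem synthesis and iron uptake genes were higher, with a median of 1.10 over 27 of the listed genes, 14 at least 2-fold higher and 1 lower, and 21 above the median of all genes. Cpox, coproporphyrinogen oxidase, had 38.8 FPKM in the steady-state library and 315 FPKM in the irradiated one (8.12-fold higher, 7.82 to 8.43). Tfrc, the transferrin receptor, had 6.14 and 37.6 FPKM (6.12-fold, 5.72 to 6.56), and Glrx5, needed to build iron-sulphur clusters, 302 and 1561 FPKM. The first enzyme of the pathway was split by isoform: the erythroid Alas2 had 4.36 and 12.7 FPKM and the housekeeping Alas1 16.8 and 8.96 FPKM (−0.84). Ppox, which acts next after Cpox, did not follow it, at 9.27 and 8.32 FPKM. Hmox2 was the only kept member at least 2-fold lower (44.3 to 18.6 FPKM), and Hmox1, the haem-degrading enzyme of macrophages, had 86.2 and 65.7 FPKM.

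Of 21 red cell membrane and blood group genes 13 were at least 2-fold higher and 1 lower (median 1.31). Rhag, the Rh-associated ammonia channel, had 16.5 FPKM in the steady-state library and 178 FPKM in the irradiated one (10.7-fold higher, 10.1 to 11.5). Tspo2, an erythroid translocator protein, had 9.91 and 58.9 FPKM, Cldn13 44.3 and 225 FPKM, Ermap 13.9 and 70.9 FPKM, and Kel 4.83 and 19.8 FPKM. Genes of the late red cell membrane stayed low: Slc4a1, the band 3 anion exchanger, had 0.228 and 1.77 FPKM, Sptb, the beta spectrin gene, 0.373 and 1.09 FPKM, and Epb42, a band 3 partner, 0.518 to 0.817 FPKM. Slc2a1, a glucose transporter, was lower (7.19 to 0.670 FPKM). Car1, an erythroid carbonic anhydrase, was already at 1318 FPKM at steady state and had 4546 FPKM after irradiation, so erythroid transcripts were abundant in both libraries.

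Globin genes were higher, and the 4 kept members had a median of 1.94. Hba-a1 had 685 FPKM in the steady-state library and 2762 FPKM in the irradiated one (4.03-fold, 3.96 to 4.11), and Hbb-bs had 387 and 1462 FPKM (3.78-fold, 3.69 to 3.87). Hba-a2 and Hbb-bt moved alike (175 to 540 and 125 to 493 FPKM), but each is a near copy of the gene before it and the division of reads between them is uncertain. All haemoglobin reads together were 0.114% of the library at steady state and 0.377% after irradiation. In the cKO pair they were 0.0474% and 1.13%, and Hba-a1 had 255 and 6074 FPKM. The haem, red cell membrane and erythroid factor lists together, without the globin genes, took 2.25% of reads at steady state and 3.80% after irradiation.

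**Figure D3:**
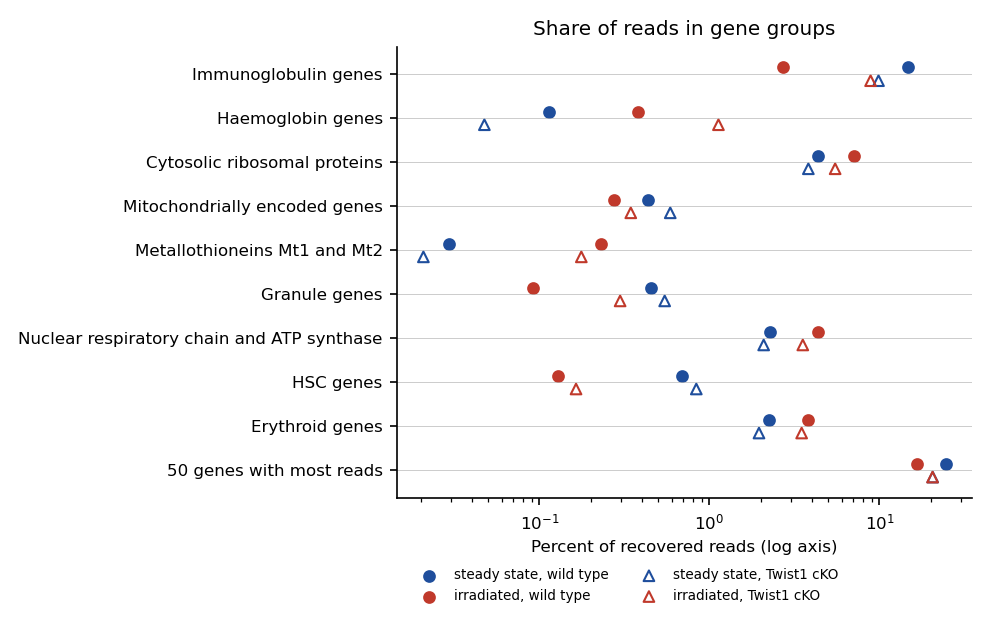
Share of recovered reads in 10 groups of genes, in percent on a log axis, for the 4 RNA-seq libraries (circles wild type, triangles Twist1 cKO; blue steady state, red irradiated); counting intervals are smaller than the symbols. In the wild type, immunoglobulin reads were 14.7% and 2.71%, ribosomal protein reads 4.33% and 7.05%, and stem cell gene reads 0.687% and 0.129%.

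Transcripts of other blood lineages were present at steady state and mostly lower after irradiation. Immunoglobulin reads made up 14.7% of the steady-state and 2.71% of the irradiated library. Ighm, the mu heavy chain, had 26708 and 1541 FPKM (17.3-fold lower, 17.2 to 17.5), Jchain 5063 and 1423 FPKM, and Cd79a of the B cell receptor 91.7 and 25.4 FPKM. Igha, the alpha heavy chain, was higher, at 1667 and 2833 FPKM. Of 21 B cell and plasma cell genes kept, 18 were at least 2-fold lower and 0 higher (median −1.92). The lowest of the named genes was Ighg3, a gamma heavy chain constant gene, at 420 and 0.501 FPKM (cKO pair 58.3 and 0.867 FPKM). Granule genes of early neutrophils were also lower, and Elane, Mpo and Ctsg belong to the progenitor list as well. Elane, neutrophil elastase, had 1007 and 22.3 FPKM (45.2-fold, 39.6 to 51.7), Mpo, myeloperoxidase, 181 and 2.73 FPKM (66.3-fold, 57.8 to 76.4), and Ctsg 205 and 9.15 FPKM. Among genes of late granules Ngp had 225 and 101 FPKM and Ltf, lactoferrin, 12 and 7.26 FPKM. The neutrophil list had a median of −2.34 over 18 genes, 16 at least 2-fold lower.

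Macrophage genes differed by less. The complement gene C1qb had 599 FPKM in the steady-state library and 352 FPKM in the irradiated one, Adgre1 (F4/80) 17.1 and 8.68 FPKM, and the median over 22 genes was −0.78 with 5 at least 2-fold lower and 2 higher. Ly6c2, a monocyte antigen, was the lowest at 306 and 9.31 FPKM, and Marco, a scavenger receptor, the highest at 1.86 and 16.8 FPKM. In the cKO pair the median of the same list was 1.41. The median of 9 class II antigen presentation genes was −1.30 in wild-type cells and 0.37 for the cKO pair, and Cd74, the invariant chain, had 1157 and 457 FPKM in the wild type. Of the mast cell and basophil list Cpa3, a mast cell protease, had 27.6 and 0.774 FPKM, and Tpsb2 16.8 FPKM and 0 reads. These transcripts of other lineages moved with the same contrast as the stem cell and erythroid genes, and their part in other gene groups was not tested.

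The 20 highest and 20 lowest genes named here leave out non-coding, predicted and receptor segment symbols and genes under 10 FPKM in both libraries, and the highest of them was a T cell gene. Tcrg-C1, a constant region of the T cell receptor gamma chain, had 17.8 FPKM in the steady-state library and 1969 FPKM in the irradiated one (111-fold higher, 101 to 122), from 428 and 40297 reads. In the cKO pair it had 26.6 and 1061 FPKM. The other gamma constant genes, looked at after this value was seen, were lower in the wild type: Tcrg-C2 had 6.26 and 3.01 FPKM and Tcrg-C4 12.6 and 1.79 FPKM. The joining segment Trgj1 had 0.640 and 99.3 FPKM. The components of the CD3 complex did not accompany Tcrg-C1, with Cd3d at 0.929 and 1.09 FPKM, Cd3e at 0.589 and 0.314 FPKM, and Cd3g at 2.69 and 1.60 FPKM, and Trbc1, a beta constant region, had 29.1 and 1.45 FPKM. Of 9 T and NK cell genes kept, the other 8 were at least 2-fold lower (median −2.04).

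Genes of cell division were higher after irradiation. The mitosis list had a median of 1.5 over 47 genes, with 38 at least 2-fold higher, 0 lower and 45 above the median of all genes. Ccnb1, cyclin B1, had 23.9 FPKM in the steady-state library and 162 FPKM in the irradiated one (6.80-fold, 6.52 to 7.09), Cdc20, activator of the anaphase-promoting complex, 49.0 and 256 FPKM (5.23-fold, 5 to 5.47), and Plk1, Polo-like kinase 1, 19.7 and 104 FPKM. Mki67, a common marker of dividing cells, differed less (6.04 and 8.22 FPKM, 1.36-fold), as did Pttg1, securin (48.2 and 52.6 FPKM). Of 44 DNA replication genes 24 were at least 2-fold higher and 0 lower (median 1.03). Among them Rrm2, which limits deoxynucleotide supply, had 52.1 and 226 FPKM (4.35-fold, 4.19 to 4.51) and Mcm10 1.62 and 7.40 FPKM, whereas Rfc1 had 13.9 and 12.4 FPKM. Under other scales between 28 and 42 mitosis genes and between 8 and 38 replication genes were at least 2-fold higher.

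The cyclin D genes Ccnd2 and Ccnd3 went apart from Ccne1. Ccne1, cyclin E1, had 13.6 FPKM in the steady-state library and 67.8 FPKM in the irradiated one (4.98-fold higher, 4.64 to 5.35), whereas Ccnd2 had 40.6 and 30.1 FPKM and Ccnd3 25 and 13 FPKM. The list of cyclins and their kinases had a median of 0.30, which changed sign with the scale (−0.06 to 1.16). Of 5 kinase inhibitors kept 3 were at least 2-fold lower: beside Cdkn1c, the p21 gene Cdkn1a had 79.4 and 29.5 FPKM (2.69-fold lower, 2.54 to 2.86) and Cdkn2d 76.0 and 22.8 FPKM. Cdkn3 was higher (22.6 to 59.2 FPKM), and Cdkn2c had 7.42 and 7.88 FPKM. Myc had 172 and 192 FPKM, beside the loss of Mycn, and in the cKO pair Myc had 197 and 98.1 FPKM.

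Targets of p53, the damage-responsive transcription factor, did not lie on 1 side 12 days after irradiation. Trp53 itself had 63.4 FPKM in the steady-state library and 125 FPKM in the irradiated one (1.97-fold higher, 1.91 to 2.03), and its regulator Mdm2 had 11.4 and 7.26 FPKM. Bax, which permeabilises mitochondria, had 125 and 309 FPKM (2.47-fold, 2.36 to 2.58), and Btg2, an antiproliferative target, had 318 and 43.3 FPKM (7.34-fold lower, 7.05 to 7.65). Of 20 genes kept 3 were at least 2-fold higher and 8 lower, and the median of −0.18 changed sign with the scale (−0.67 to 0.31). The Bcl2 family also went apart, and of 11 members kept 4 were at least 2-fold higher and 2 lower. The survival genes Mcl1 (110 to 25.9 FPKM) and Bcl2 (5.11 to 0.587 FPKM) were lower. The death gene Bid (18.6 to 45.2 FPKM) was higher, as was Bax. The highest member differed by 1.71, more than Bax or Bid, so the genes named do not cover the higher side. The list median of −0.09 also changed sign with the scale (−0.50 to 0.50). The median of 25 DNA repair and checkpoint genes was 0.86, with 9 at least 2-fold higher (2 to 23 under other scales) and 0 lower, led by H2afx, the histone variant that marks breaks (76.7 to 226 FPKM), and Tipin (164 to 470 FPKM).

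Immediate early genes, which respond to stimuli within minutes and also to cell handling, were lower, with 22 of 25 at least 2-fold lower, 0 higher and a median of −2.47. Nr4a1, an orphan nuclear receptor linked to quiescence, had 353 FPKM in the steady-state library and 25.8 FPKM in the irradiated one (13.7-fold lower, 13 to 14.4). Dusp2, a MAP kinase phosphatase, had 146 and 4.55 FPKM, Klf2 39.1 and 2.20 FPKM, Egr1 462 and 57.6 FPKM (8.01-fold, 7.80 to 8.24), and Fos 1508 and 192 FPKM. Atf3 (13.1 and 18.6 FPKM) and Myc were the members above 0. In the cKO pair the list median was −2.56. How long cells of each library were handled is not given, and its part was not tested. The inflammatory list had a median of −0.92 over 17 genes with 8 at least 2-fold lower and 2 higher; the chemokine genes Ccl4 (220 to 8.14 FPKM) and Ccl3 (31.7 to 3.07 FPKM) were lowest. Of 29 interferon-stimulated genes 14 were lower and 1 higher, with a median of −0.89, from Ifitm1, an interferon-induced membrane protein abundant in stem cells, at 1056 and 18.4 FPKM (57.4-fold lower, 52.2 to 63.1), to Ifi27l2a at 28.3 and 75.2 FPKM.

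**Figure D4:**
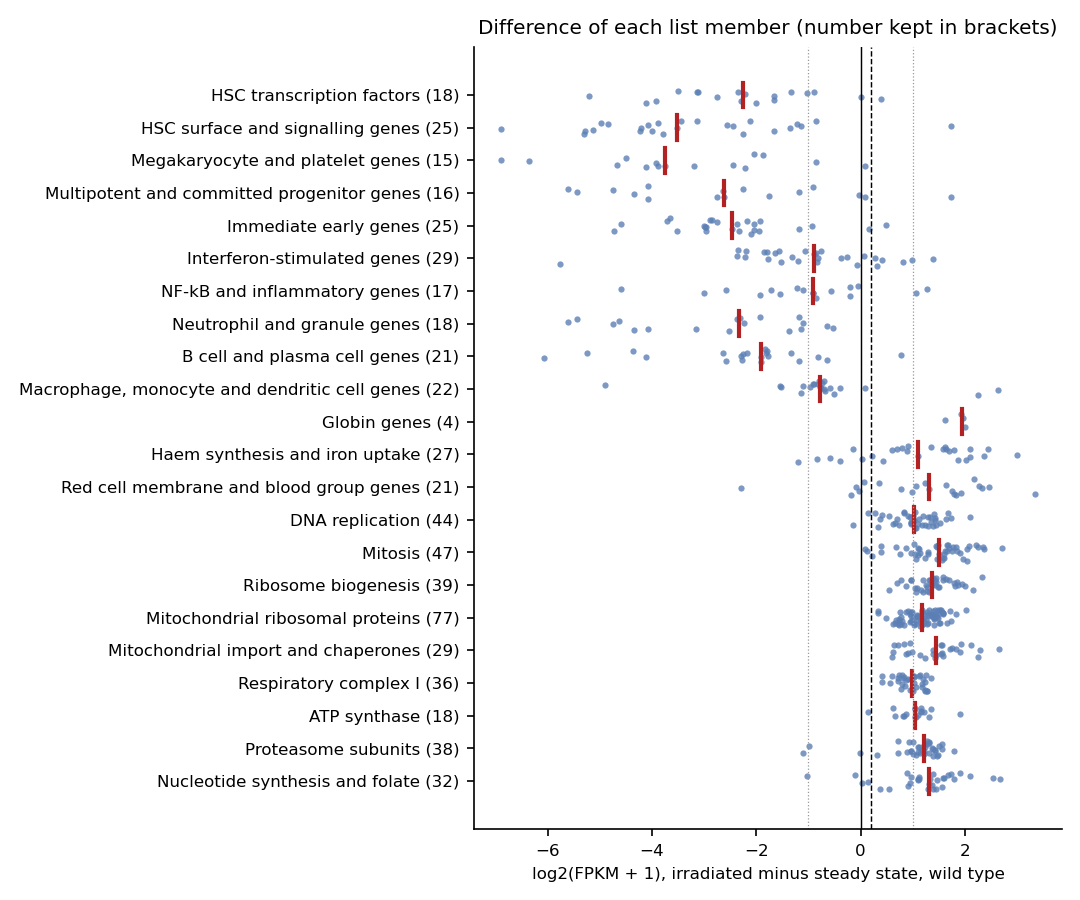
Difference of each kept member of 22 gene lists as log2(FPKM + 1), irradiated minus steady state in the wild type; red bars are list medians, the solid line is 0, the dashed line the median of all genes (0.21) and the dotted lines a 2-fold difference. The 22 medians shown kept their sign under the 6 other scales tried. Medians of the stem cell, megakaryocyte, progenitor, immediate early and neutrophil lists lie left of −2. Those of the lists from globin genes downwards lie right of the dashed line.

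Genes that build and clear proteins were higher. Ribosome biogenesis factors had a median of 1.36 over 39 genes, 33 at least 2-fold higher, 0 lower and all 39 above the median of all genes. Nhp2, of the small nucleolar complex that pseudouridylates ribosomal RNA, had 232 FPKM in the steady-state library and 1167 FPKM in the irradiated one (5.02-fold, 4.89 to 5.15), and Npm1, nucleophosmin, had 277 and 1014 FPKM. Of 79 cytosolic ribosomal protein genes 32 were at least 2-fold higher and 1 lower (median 0.92, and 4 to 71 higher under other scales), from Rpl5 (177 to 549 FPKM) to Rps4l (39.0 to 13.3 FPKM), and their many processed copies make single values uncertain. Of 38 proteasome genes 27 were at least 2-fold higher (median 1.22, and 8 to 34 higher under other scales). The 3 inducible subunits of the immunoproteasome lay lowest or near it: Psmb8 had 95.5 and 43.9 FPKM (2.17-fold lower, 2.08 to 2.28), Psmb9 78.1 and 38.8 FPKM, and Psmb10 186 and 231 FPKM. Psmb3, a constitutive subunit, had 184 and 634 FPKM.

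Nuclear genes of mitochondrial protein supply and respiration were higher, and genes encoded in the mitochondria were not. Import and chaperone genes had a median of 1.44 over 29 genes, 20 at least 2-fold higher and all 29 above the median of all genes. The matrix chaperonins Hspe1 and Hspd1 went from 188 and 184 FPKM to 1193 and 901 FPKM (6.33-fold, 6.11 to 6.56, and 4.89-fold, 4.80 to 4.99). Mitochondrial ribosomal proteins had a median of 1.18 over 77 genes, with 53 at least 2-fold higher (21 to 75 under other scales), 0 lower, and Mrpl12 at 23.9 and 99.9 FPKM. Complex I had a median of 0.99 over 36 genes, complexes II and III 1.39 over 13, complex IV with cytochrome c 1.01 over 13, and ATP synthase 1.05 over 18. Cycs, cytochrome c, had 94.6 and 387 FPKM (4.10-fold, 4 to 4.2), Cyc1 of complex III 254 and 929 FPKM, Atp5g1 98.9 and 373 FPKM, and Ndufs6 of complex I 228 and 584 FPKM. The 2-fold counts were set by the scale: 17 complex I genes were at least 2-fold higher as deposited, and between 0 and 35 under other scales, while the median stayed between 0.58 and 1.59. Reads of the nuclear respiratory chain and ATP synthase made up 2.28% of the steady-state and 4.37% of the irradiated library.

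The 11 mitochondrially encoded genes kept had a median of −0.61, which turned to 0.13 with the upper quartile scale, and 10 of them lay below the median of all genes. mt-Cytb, cytochrome b, had 875 FPKM in the steady-state library and 699 FPKM in the irradiated one, and mt-Nd4 had 135 and 84.5 FPKM. mt-Co1 went the other way in the wild type, 146 to 337 FPKM, and in the cKO pair it had 733 and 393 FPKM. Their share of reads was 0.434% and 0.274%. Ppargc1a, a coactivator of mitochondrial biogenesis, stayed under the minimum at 0.280 and 0.151 FPKM. Of 23 mitophagy and autophagosome genes kept 0 were at least 2-fold higher and 5 lower, among them Pink1, the mitophagy kinase (44.3 to 17.7 FPKM) and Map1lc3a (35.4 to 7.91 FPKM), with a median of −0.37 whose sign changed with the scale (−0.78 to 0.29).

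In carbon metabolism, the lactate dehydrogenase genes Ldha and Ldhb went opposite ways, and Ldha had the higher level in both libraries. Ldhb, the heart-type subunit of lactate dehydrogenase, had 119 FPKM in the steady-state library and 1.64 FPKM in the irradiated one (72.7-fold lower, 56.0 to 96.1), whereas Ldha had 410 and 1274 FPKM (3.10-fold higher, 3.06 to 3.14). Aldoc, an aldolase, had 7.95 and 0.858 FPKM, and Pklr, the red cell and liver pyruvate kinase, 2.27 and 11.8 FPKM. Glycolysis genes had 6 of 25 at least 2-fold higher and 7 lower, with a median of 0.41. The tricarboxylic acid cycle had a median of 0.88 over 24 genes, with Mdh2 (154 to 537 FPKM) and Idh3a (75.4 to 248 FPKM) among the highest, while Idh1 and Idh2 of the NADP-linked reaction lay lowest (28.2 to 19 and 102 to 67.2 FPKM). Fatty acid oxidation was split, with Acaa2 at 83.5 and 218 FPKM and Cpt1a, the gatekeeper of mitochondrial uptake, at 12.3 and 5.38 FPKM, and a median of 0.14 that changed sign with the scale (−0.27 to 0.71).

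Of 32 nucleotide and folate enzymes 22 were at least 2-fold higher and 1 lower (median 1.31). Mthfd2, the mitochondrial folate enzyme of growing cells, had 4.95 FPKM in the steady-state library and 36.9 FPKM in the irradiated one (7.46-fold, 6.75 to 8.26), and Mthfd1 33.4 and 198 FPKM (5.91-fold, 5.68 to 6.15). Mthfd2 is also a target of ATF4, and so are Asns, asparagine synthetase (33.1 to 182 FPKM), and Psat1 (17.7 to 68.7 FPKM), whereas the stress-linked members Trib3 (8.03 to 1.74 FPKM) and Cebpb (125 to 17.6 FPKM) were lower and Atf4 itself had 99.3 and 105 FPKM. Among antioxidant enzymes the mitochondrial Prdx3 (132 to 443 FPKM), Txnrd2 and Txn2 were highest and the endoplasmic reticulum enzymes Gpx7 (8.85 to 0.876 FPKM) and Gpx8 lowest, with 11 of 29 at least 2-fold higher and 3 lower.

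Metallothioneins, small cysteine-rich proteins that bind zinc and copper, were among the 20 highest genes. Mt1 had 417 FPKM in the steady-state library and 3547 FPKM in the irradiated one (8.52-fold, 8.29 to 8.75), and Mt2 had 102 and 1209 FPKM (11.9-fold, 11.2 to 12.5). The genes lie next to each other on chromosome 8 in GRCm38.p6 (94178883 to 94180327 and 94172618 to 94173567). Together they took 0.0292% and 0.232% of reads. Zinc transporters did not move with them: Slc30a5, the only other kept member of that list, had 17.1 and 20.7 FPKM. The list median of 3.09 therefore rests on these 2 genes, and it was negative under settings that kept 6 or more members (−0.55 without the 50 most abundant genes, over 9), except 1.4 over 6 with the upper quartile.

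Several of the highest genes were nearly absent at steady state. Cda, cytidine deaminase, had 0.148 FPKM in the steady-state library and 67.1 FPKM in the irradiated one (452-fold, 176 to 1661), from 4 and 1538 reads. C2cd4a had 0.0284 and 45.8 FPKM, a ratio of 1610 (289 to 63652) on 1 read at steady state. Cask, a membrane scaffold kinase, had 0.353 and 16.9 FPKM, and Plek2, a pleckstrin of maturing erythroid cells, 0.801 and 22.4 FPKM (28.0-fold, 19.8 to 41.0). Prl2c5, one of several near-identical prolactin family genes, had 0.0653 and 10.9 FPKM, which remains uncertain. The fatty acid binding proteins Fabp5 (32.0 to 252 FPKM) and Fabp1 (0.556 to 10.5 FPKM), the matrix gene Emilin2 (3.64 to 33.9 FPKM), Rfesd (12.7 to 99.9 FPKM) and Cited4 (11.1 to 82.8 FPKM) followed. The osteocalcin gene Bglap2 had 0.734 and 13.1 FPKM and its near copy Bglap 0.435 and 9.28 FPKM. Of the other stroma and bone genes kept, Sparc had 13.4 and 19.1 FPKM, Cxcl12, the niche chemokine, 27.2 and 2.01 FPKM, and Ibsp 40.6 and 5.98 FPKM. The collagen genes Col1a1 (0.0644 and 2.30 FPKM) and Col1a2 (0.590 and 2.33 FPKM) were under the minimum. The stroma list had a median of −0.80 over 8 genes, 2 at least 2-fold higher and 4 lower, and the median turned to 0.34 with the upper quartile scale.

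Most genes called lower in the wild type were also called lower in the cKO pair, but a minority of those called higher were called higher. Of the genes at least 2-fold lower in the wild type, 1088 were also lower in the cKO pair (77.7% of the wild-type and 65.0% of the cKO calls), and 486 were higher in both (34.7% and 63.8%), where the cKO pair had 10.3% of its 7393 genes higher and 22.6% lower. In the plot of both pairs 42 genes were lower in the wild type and higher in the cKO pair, and 5 the reverse. Across the 7039 genes kept in both, Pearson's r was 0.73 and Spearman's rho 0.87, as a description over genes, which are not independent replicates. Over all genes the wild-type median was 0.21 and that of the cKO pair −0.20, and the difference between pairs was not tested. Length of the gene model was unrelated to the wild-type difference across genes (rho −0.02), and mean level was related to it (rho 0.35).

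**Figure D5:**
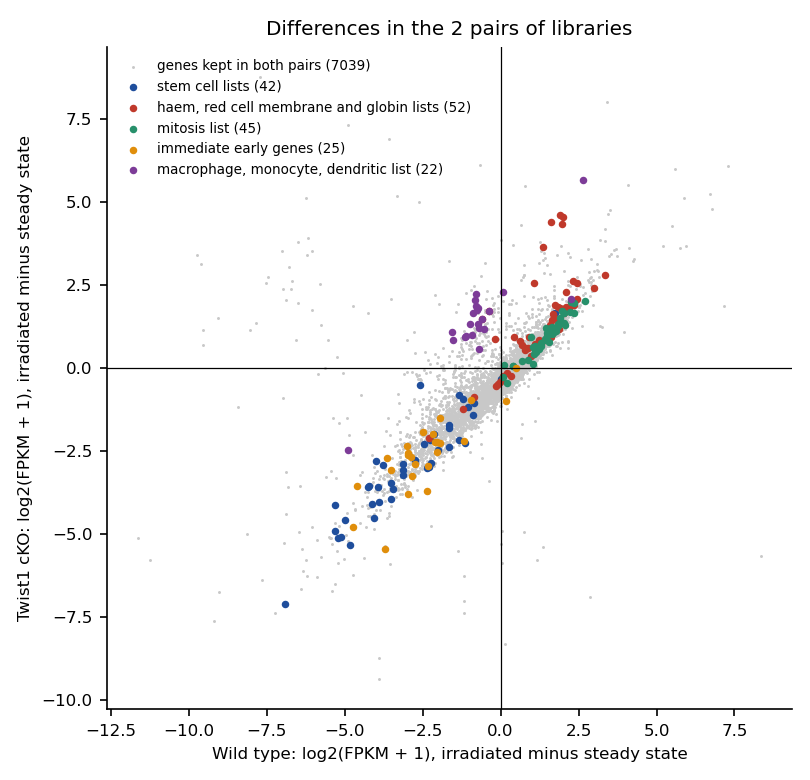
Difference of each of the 7039 genes kept in both pairs, as log2(FPKM + 1), irradiated minus steady state, in the wild type (horizontal) and in the Twist1 cKO (vertical), with members of 5 groups of lists in colour. Stem cell and immediate early genes lie low on both axes and red cell and mitosis genes mostly high on both, while the macrophage list lies left of 0 on the horizontal and above 0 on the vertical axis for most members (medians −0.78 and 1.41).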

How the data were processed

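RNA-seq of sorted mouse marrow cells gave 1 library in each of 4 groups, of which the wild-type pair is compared here. The deposited values are FPKM per Ensembl gene model, made by the authors. Per the submitters' processing notes, the series used HOMER, MACS2 2.1.0, BWA 0.7.12-r1039, Bowtie and the mm10 build, with no role given, and the RNA-seq aligner and counter are not given in the sources used here. Of 30409 identifiers 30231 had a symbol. Differences used log2(FPKM + 1) and a minimum of 5 FPKM in the higher wild-type library. Reads per gene were recovered as the whole numbers that fit the FPKM of all 4 libraries, for 30409 of 30409 identifiers, 475 of them at 0 throughout and so unchecked. On simulated data (29934 genes, wild-type comparison) 96.6% of genes with 30 or more reads and 96.0% of those with 1 to 29 were recovered exactly. Ratios have exact 95% intervals for counting error, and a 0 was set to a floor of 3 reads. Python 3.11.15, numpy 2.4.6, pandas 2.3.3 and scipy 1.17.1 were used.

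Named genes are the 20 highest and 20 lowest with at least 10 FPKM (leaving out non-coding, predicted and receptor segment symbols), up to 4 at each end of each of 53 gene lists, and a fixed set of gate, stem cell and erythroid genes. Members, lists and rules were chosen with earlier results of these data known. Trgj1, Tcrg-C2, Tcrg-C4, Eif2s3y and genes named away from the ends of their lists were chosen after their values were seen. Promoters came from RefSeq (GRCm38.p6, 5432 of 7418 genes matched). Identifiers sharing a symbol, near-identical copies and overlapping genes are uncertain, since how the authors counted their reads is not given. Alternatives tried were the pseudocount, the minimum, the scale between libraries, the genes left out, the fold and the summary of a list. Some genes that the rule names are not reported here.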

Additional observations from a re-analysis of the deposited data

Results flagged for a closer look

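Wild-type and Twist1 cKO pairs were apart in opposite directions, by at least 2-fold in each pair for 2 named genes and by at least 1.5-fold in each pair for the median of 1 list. Smaller opposite differences, such as the class II presentation list at −1.30 and 0.37, are not counted. These differences between the pairs were not tested. Fcna, ficolin A, a lectin made by macrophages, differed by −1.55 (log2(FPKM + 1), irradiated minus steady state) in the wild type, with 145 and 49.1 FPKM, and by 1.10 in the cKO pair, with 40.9 and 88.6 FPKM. Ighg2c, an immunoglobulin heavy chain constant gene, differed by −6.06 in the wild type (245 and 2.69 FPKM) and by 1.76 in the cKO pair (42.3 and 146 FPKM). The list of macrophage, monocyte and dendritic cell genes had medians of −0.78 and 1.41, and the C1qa values were 207 and 119 FPKM in the wild type and 58.0 and 216 FPKM in the cKO pair.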

How the results depend on the processing

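No paired analysis was possible because each group held 1 library. The 1400 genes higher and 1401 lower depended on the minimum, the scale and the fold. With a minimum of 1 FPKM 2424 genes were lower and the median of all genes was −0.0628. With a minimum of 20 FPKM 536 were lower (66.6% of calls higher) and the median was 0.58, and with no minimum the figures were 2424 and 0. The median of ratios gave 599 higher and 1882 lower with a median of −0.19. The upper quartile gave 3281 higher and a median of 0.78. Without the 50 most abundant genes 645 were higher and 2578 lower, with a median of −0.33. Recovered read totals gave 933 higher and 1684 lower with a median of −0.0168, and without immunoglobulin reads 607 and 2141 with a median of −0.25. Centring on the median of all genes, chosen after seeing the data, sets it to 0. At 1.5-fold 2586 genes were higher, and at 4-fold 148 were higher and 674 lower. The median of the metallothionein and zinc list reversed to −0.10 with a minimum of 1 FPKM, −0.0572 with none, −0.55 without the 50 most abundant genes and −0.35 without immunoglobulin reads, where more members were kept. With the upper quartile the mitochondrially encoded list turned to 0.13 and the stroma list to 0.34. Over the 6 other scales 39 of 52 lists kept the sign of their median and 13 changed it. Low levels rest on few reads, and 1 library a group limits every comparison.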

Other observations

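Around Epdr1, 1 of the 20 highest genes, the neighbouring genes within 1 Mb on chromosome 13 (GRCm38.p6) were looked up after its value was seen. Epdr1 (19591708 to 19619830) had 21.8 FPKM in the steady-state and 203 FPKM in the irradiated wild-type library. Sfrp4 (19623175 to 19632825), also among the 20 highest, lies 3345 bases from it and had 9.23 and 88.0 FPKM. The other 5 kept genes with an annotated position in that window were spread on the log2(FPKM + 1) scale. Trgj1 differed by 5.93, Stard3nl by 0.66, Vps41 by −0.13, Elmo1 by −2.53 and Trgj4 by −3.30. Kept genes without an annotated position, among them Tcrg-C1, Tcrg-C2 and Tcrg-C4, could not be placed, so the window may hold more genes. In the cKO pair Epdr1 differed by 2.74 and Sfrp4 by 2.93.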
